A study of Homo sapiens with 30 samples.

Results

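Amino acid transporter transcripts were followed in MCF-10A, a human breast epithelial line that is not transformed and grows as an established culture. The 10 genes were SLC7A5, SLC3A2, SLC7A8, SLC7A11, SLC7A1, SLC6A14, SLC1A5, SLC1A4, SLC38A1 and SLC38A2. They were taken as all array probes annotated to these symbols, which gave 14 of the 47231 probes. Of these, 12 were detected on at least 3 of the 30 arrays and were kept, so that all 10 genes stood among the 13721 genes tested. The other 2 probes, both of SLC7A8, were detected on 0 arrays.

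Every sample, controls included, overexpressed cyclin E and stably carried a short hairpin RNA (shRNA), and was harvested after 48 hours in MCF-10A medium. The 5 shRNAs were shControl, shATM, shATR, shCHK1 and shCHK2, the last 4 named for kinases of the DNA damage and replication stress response. Each was measured in set 1 and set 2 with 3 arrays, which made 10 groups. What set 1 and set 2 stand for is not explained by the labels, which give no hairpin sequences and do not tell whether the replicates were separate cultures. The p-values and standard errors (SE) therefore measure the spread between arrays, which may be technical. Each knockdown was compared with the 3 shControl arrays of its own set, so the 4 comparisons of a set share their controls, and 8 comparisons rest on 2 control groups.

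Levels are log2 intensities after background correction and quantile normalization, and levels of different probes were not compared. A probe counted as detected on an array when its detection p was under 0.05. A gene was called higher or lower when its adjusted p was under 0.05 (limma, two-sided, Benjamini-Hochberg over the 13721 genes), and the words rose and fell are used only for such calls.

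The targeted transcripts were checked against the labels. Against shControl of the same set, ATM differed by -0.67 and -0.30 under shATM and CHEK1 by -0.38 and -1.18 under shCHK1 (log2, set 1 and set 2, all called lower). CHEK2 differed by -0.55 (called lower) and by -0.15 (adjusted p = 0.34 in the limma fit) under shCHK2. ATR was near background and was not lower on the arrays labelled shATR, at 0.65 (called higher) and 0.03, so these are called by their label throughout. CCNE1, which encodes cyclin E1, was lower than in shControl in all 8 comparisons, with differences between -2.72 and -0.94. MCF-10A is known to lack the CDKN2A locus, and a CDKN2A probe gave a detected signal on 24 of 24 knockdown arrays and on 0 of 6 control arrays. A difference in the origin of control and knockdown cells and an effect of the shRNAs cannot be told apart in these data. Replicate arrays correlated at r = 0.988 to 0.996 across genes. Replicate 3 of the shATR label in set 2 and replicate 3 of shCHK2 in set 1 stood apart from their replicates, and calls lost or gained without both of them are given beside the results.

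Of the markers of the cell line, KRT5, KRT14, ITGA6, ITGB4, CDH3, EGFR, CDH1, EPCAM, KRT8 and KRT18 were detected on all 30 arrays. KRT19 gave a signal on 6 of 6 controls and on 2 of 24 knockdown arrays. The summed level of the 5 general epithelial markers lay between 15729.6 and 21129 (linear intensity) on control arrays and between 9101 and 14499.7 on knockdown arrays, without overlap. Its members differed in direction: KRT8, KRT19 and CDH1 fell in all 8 comparisons with shControl, KRT18 rose in 7, and EPCAM rose in 1 and fell in 3. For the 6 basal markers tested the sums were 4928 to 8128 on control and 5998 to 18326 on knockdown arrays, with overlap. Per comparison with shControl, 5 to 6 of these 6 were called higher and 0 lower in set 1. In set 2, 1 to 2 were called higher and 2 to 3 lower. Of all genes, 24.1% to 26.1% were higher and 24.3% to 29.6% lower. The 3 leukocyte markers tested, CD14, CD68 and LYZ, summed to 2645 to 4448 on control and 1494 to 2514 on knockdown arrays. They did not move together: CD14 fell in all 8 comparisons with shControl, while CD68 rose in 1, LYZ rose in 3 and neither fell. The defining markers PTPRC and CD3E were detected on 1 and 0 of the 30 arrays. The 5 endothelial and fibroblast markers tested summed to 278 to 409 on control and 118 to 264 on knockdown arrays. VWF, COL3A1 and PDGFRB were detected on 0 arrays. The endothelial marker PECAM1 passed the detection threshold in all 6 controls but in only 4 of the 24 knockdown samples. For CDH5, also endothelial, 5 controls and 0 knockdown samples passed. Both genes fell in all 8 comparisons with shControl. COL1A1 and COL1A2 were called in none of the 8, and DCN was higher in 1 and lower in 1. All the marker sums except the basal one separated knockdown from control arrays without overlap. The part of the markers in the results below was not tested. In RNA from whole cultures, fewer cells of a type and less RNA per cell cannot be told apart.

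Amino acids cross the plasma membrane on carriers that differ in substrate and in driving force. SLC7A5 (LAT1) and SLC7A8 (LAT2) exchange large neutral amino acids such as leucine, and SLC7A11 (xCT) imports cystine in exchange for glutamate. All 3 are light chains that reach the membrane with the heavy chain SLC3A2, also called 4F2hc or CD98hc. SLC7A1 carries arginine and lysine, SLC6A14 takes up neutral and cationic amino acids with sodium and chloride, and SLC1A5 (ASCT2) and SLC1A4 (ASCT1) exchange small neutral amino acids such as serine and, for SLC1A5, glutamine. SLC38A1 and SLC38A2 accumulate glutamine and alanine with sodium. Leucine that enters through SLC7A5 and SLC3A2 promotes the activation, at the lysosome, of mTORC1, a kinase complex that drives protein synthesis. Shortage of amino acids induces several of these genes through the transcription factor ATF4.

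Against shControl, the heavy chain SLC3A2 and its partner SLC7A5 rose in all 8 comparisons, by 1.26-fold to 1.85-fold and by 1.43-fold to 1.74-fold. SLC38A2 fell in all 8, by 1.72-fold to 2.64-fold. SLC6A14 was called lower in all 8 but lay near background in set 2. In set 1 it was 4.58-fold to 5.86-fold lower by the fit in 3 comparisons and at least 5.35-fold lower under shCHK2. With shATM, the shATR label and shCHK1 of set 1 its probe was detected on 2, 1 and 1 of 3 arrays. These fitted folds are therefore limited by background too and are not ranked against the bound. SLC7A11 and SLC1A5 fell in all 4 comparisons of set 1, while SLC7A1 and SLC7A8 rose in all 4 of set 1. SLC1A4 was called in none of the 8.

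Counted over the 10 genes, 56 of 80 comparisons with shControl were called, 27 higher and 29 lower. With shATM of set 1, 9 of 10 genes were called, where 48.5% of all genes tested were. The arrays labelled shATR of set 1 gave 8 of 10 beside 48.9%, shCHK1 8 of 10 beside 50.3%, and shCHK2 9 of 10 beside 51.3%. In set 2, shATM gave 7 of 10 beside 54.2%, the shATR label 5 of 10 beside 54.7%, shCHK1 5 of 10 beside 53.7% and shCHK2 5 of 10 beside 55.3%. The shares of the 10 genes in set 2 thus lay near those of all genes for 3 of the 4 knockdowns. By direction, shATM of set 1 had 4 of the 10 higher and 5 lower (24.1% and 24.4% of all genes), the shATR label 4 and 4 (24.6% and 24.3%), shCHK1 4 and 4 (25.4% and 24.8%) and shCHK2 5 and 4 (26.1% and 25.2%). In set 2 these counts were 3 and 4 for shATM (24.9% and 29.3%), 3 and 2 for the shATR label (25.6% and 29.1%), 2 and 3 for shCHK1 (25.1% and 28.6%), and 2 and 3 for shCHK2 (25.7% and 29.6%). With median scaling in place of quantile normalization, the share of all calls of set 1 that were higher was 68.5% for the shATR label, 64.3% for shCHK1 and 70.4% for shCHK2, a move of 18.2, 13.7 and 19.5 percentage points, and the median of all genes shifted by 0.15, 0.11 and 0.18 (log2). The median difference of the 10 genes lay between -0.08 and 0.26, and that of all genes between -0.01 and 0.01 (log2). Being called in all 8 in 1 direction was met by 10.4% of all genes for higher and 13.6% for lower, and by 2 and 2 of the 10 transporters.

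**Figure D1:**
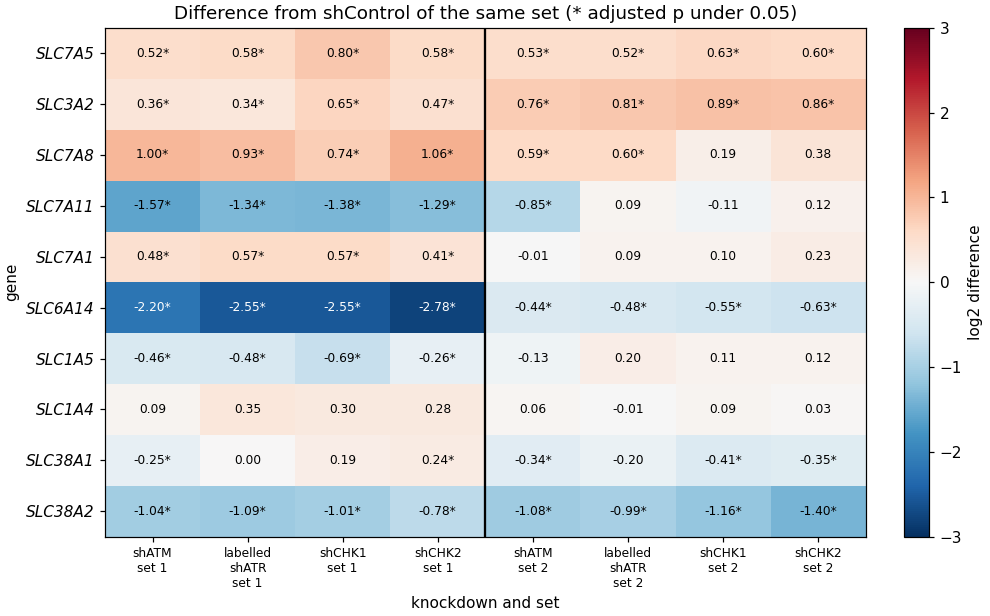
Difference of each transporter transcript from shControl of the same set (log2, mean of 3 arrays minus mean of 3 arrays), for 4 knockdowns in set 1 (left of the line) and set 2 (right of it). Red cells are higher and blue cells lower than shControl, and an asterisk marks an adjusted p under 0.05. SLC7A5 and SLC3A2 are called higher, and SLC38A2 and SLC6A14 lower, in all 8 columns.

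The promoters of these 4 genes are shown because each was called the same way in all 8 comparisons. The sequences are RefSeq windows of 300 bases on build GRCh38.p14, from 250 bases before to 50 bases after an annotated transcript start, read on the gene's strand. SLC7A5 has its window at chr16:87869458-87869757 on the minus strand, SLC3A2 at chr11:62881449-62881748 on the plus strand (the third of 3 windows listed for it), SLC38A2 at chr12:46372724-46373023 on the minus strand and SLC6A14 at chrX:116436356-116436655 on the plus strand. Capitals mark matches to 3 motifs searched on both strands: the ATF4 composite site TGATGNAA, the E-box CACGTG bound by MYC and MITF family factors, and the antioxidant response element core TGACNNNGC bound by NRF2.
SLC7A5: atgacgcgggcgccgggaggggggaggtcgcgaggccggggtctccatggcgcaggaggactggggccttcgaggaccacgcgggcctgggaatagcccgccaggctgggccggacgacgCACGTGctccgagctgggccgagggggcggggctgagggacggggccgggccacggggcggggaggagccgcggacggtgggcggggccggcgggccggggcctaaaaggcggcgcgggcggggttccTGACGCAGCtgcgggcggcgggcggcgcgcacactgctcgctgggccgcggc
SLC3A2: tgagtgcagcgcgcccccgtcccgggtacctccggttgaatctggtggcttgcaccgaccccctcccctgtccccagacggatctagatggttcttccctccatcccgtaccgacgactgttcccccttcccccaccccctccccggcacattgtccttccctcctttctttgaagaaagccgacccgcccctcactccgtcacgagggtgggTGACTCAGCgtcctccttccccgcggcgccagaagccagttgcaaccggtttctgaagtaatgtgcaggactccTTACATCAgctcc
SLC38A2: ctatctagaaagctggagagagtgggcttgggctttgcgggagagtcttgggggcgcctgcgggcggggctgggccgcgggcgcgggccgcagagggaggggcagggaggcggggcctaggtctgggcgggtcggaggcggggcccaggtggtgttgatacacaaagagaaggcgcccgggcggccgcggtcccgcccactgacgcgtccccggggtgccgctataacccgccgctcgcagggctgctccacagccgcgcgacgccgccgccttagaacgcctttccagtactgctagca
SLC6A14: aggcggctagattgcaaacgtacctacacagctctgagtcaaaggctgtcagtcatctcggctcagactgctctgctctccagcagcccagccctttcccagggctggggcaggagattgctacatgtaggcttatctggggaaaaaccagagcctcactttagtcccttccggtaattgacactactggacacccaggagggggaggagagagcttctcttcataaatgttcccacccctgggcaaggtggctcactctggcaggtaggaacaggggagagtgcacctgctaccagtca

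The SLC7A5 window held an E-box whose first base lies at -130 from the transcript start and an antioxidant response element core at -2. The SLC3A2 window held that core at -37 and an ATF4 composite site, on the other strand, at 38. It is the only window listed for SLC3A2 with a match, and the others held none of the 3 motifs. None of the 3 motifs was found in the windows shown for SLC38A2 and SLC6A14. Windows were listed for 9 of the 10 genes, with 18 windows in all, and SLC7A11 had no entry. The ATF4 composite site stood in a window of 5 of the 9 genes (SLC7A1, SLC3A2, SLC1A5, SLC1A4 and SLC38A1), and in 4.46% of the 27305 genes of the whole table. An E-box stood in 3 of 9 (SLC7A5, SLC1A5 and SLC7A8) beside 8.77% of all genes, and the antioxidant core in 4 of 9 (SLC7A5, SLC7A1, SLC3A2 and SLC1A5) beside 16.1%. Counted by window, the 3 motifs stood in 5, 3 and 4 of the 18 windows, beside 3.62%, 7.26% and 13.3% of all 35116 windows. No match overlapped a match of another motif. The 5 genes with an ATF4 composite site did not share a direction: SLC3A2 rose in 8 comparisons, SLC7A1 rose in 4, SLC1A5 fell in 4, SLC38A1 was called both ways and SLC1A4 was not called.

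SLC7A5, the light chain of the leucine exchanger, was detected on all 30 arrays. In set 1 its level was 13.37, 13.40 and 13.13 on the shControl arrays, 13.83, 13.78 and 13.84 with shATM and 13.87, 13.92 and 13.85 with the shATR label. With shCHK1 it was 14.13, 14.07 and 14.11, and with shCHK2 14.01, 13.98 and 13.65. All 12 knockdown arrays of set 1 lay above the 3 controls, and the shCHK1 arrays were the highest of the series in group mean. In set 2 the SLC7A5 level was 13.21, 13.07 and 13.13 with shControl, 13.59, 13.70 and 13.70 with shATM and 13.84, 13.64 and 13.49 with the shATR label. It was 13.87, 13.74 and 13.69 with shCHK1 and 13.86, 13.50 and 13.86 with shCHK2 of set 2. Again no knockdown array reached down to the controls. The differences from shControl were 0.52, 0.58, 0.80 and 0.58 in set 1 and 0.53, 0.52, 0.63 and 0.60 in set 2 (log2, in the order shATM, shATR label, shCHK1, shCHK2, SE 0.11 each). Adjusted p-values of the limma fit ran from 6.1e-07 to 0.00027. In the order of the 10 group means, the step from the lowest knockdown group (shATR label of set 2) to shControl of set 1 was 0.35, with no overlap of arrays, and 6 of the 9 steps between neighbours overlapped.

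SLC3A2, the heavy chain that SLC7A5, SLC7A8 and SLC7A11 need, was detected on all 30 arrays by both of its probes. The brighter probe read 11.95, 11.75 and 11.91 on the shControl arrays of set 1, 12.22, 12.22 and 12.24 with shATM and 12.16, 12.23 and 12.23 with the shATR label. For shCHK1 and shCHK2 of set 1 the SLC3A2 values were 12.49, 12.50 and 12.58, and 12.35, 12.60 and 12.08. The 12 knockdown arrays lay above the 3 controls, and the shCHK2 arrays spread over 12.08 to 12.60. In set 2 SLC3A2 stood at 11.56, 11.37 and 11.41 with shControl, 12.16, 12.25 and 12.21 with shATM and 12.37, 12.25 and 12.15 with the shATR label. The shCHK1 arrays of set 2 gave 12.31, 12.28 and 12.42, and the shCHK2 arrays 12.30, 12.34 and 12.29. The controls of set 2 were the lowest group, below those of set 1 with no overlap. The SLC3A2 differences were 0.36, 0.34, 0.65 and 0.47 in set 1 and 0.76, 0.81, 0.89 and 0.86 in set 2 (same order, SE 0.10 each, adjusted p 1.7e-08 to 0.0054, limma).

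The second SLC3A2 probe rose in the same 8 comparisons, by 0.83, 0.72, 1.28 and 0.90 in set 1 and 1.59, 1.31, 1.53 and 1.85 in set 2 (SE 0.17 each). Its differences were the larger in each of the 8, so the 2 probes share the direction and not the size. On control arrays the second probe ranged from 8.71 to 9.51, and on knockdown arrays from 9.67 to 10.77, without overlap. Both SLC3A2 and SLC7A5 thus separated all 24 knockdown arrays from all 6 control arrays, and so did SLC38A2. How many of all genes do so was not counted, so this separation is not read as particular to these genes. Counted over the 10 genes, knockdown and control arrays did not overlap for 9 with each knockdown of set 1 (57.5% of all genes for shATM, 58.8% for the shATR label, 58.4% for shCHK1 and 55.4% for shCHK2). In set 2 this held for 6 genes with shATM (59.6% of all genes), 5 with the shATR label (57.5%), 4 with shCHK1 (60.8%) and 7 with shCHK2 (62.4%).

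**Figure D2:**
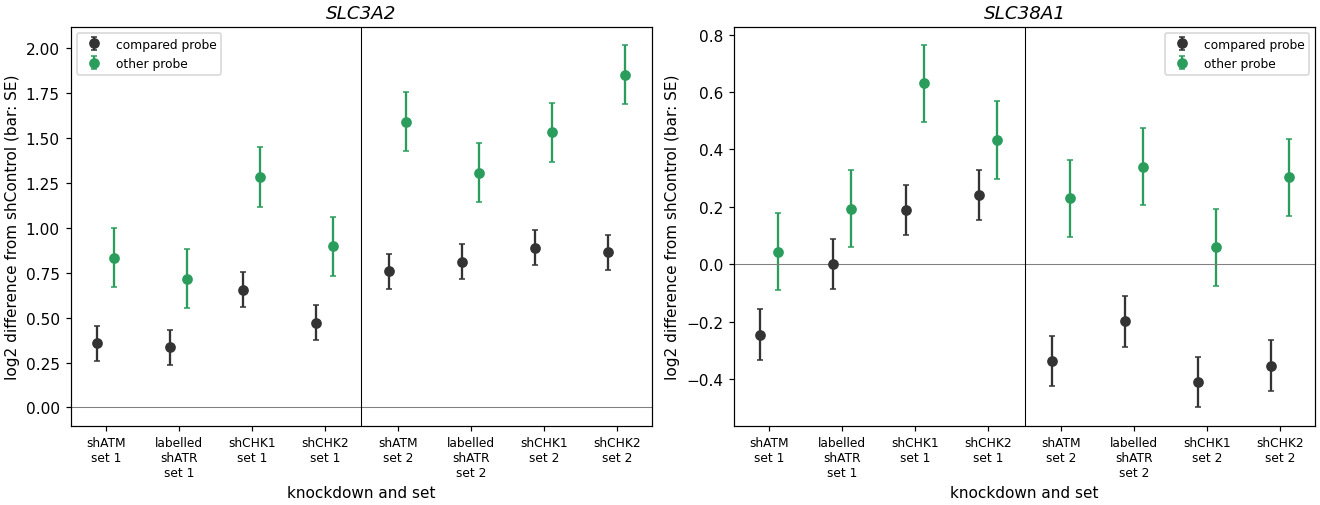
Difference from shControl of the same set (log2, points, with SE as bars) for the probe used in the comparisons and the other kept probe of SLC3A2 (left) and SLC38A1 (right), in 4 knockdowns and 2 sets. Both SLC3A2 probes lie above 0 in all 8 comparisons, while in set 2 the compared SLC38A1 probe lies below 0 and the other above it.

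SLC7A8, a light chain related to SLC7A5, was close to background on the control arrays. It was detected on 1 of 6 control arrays and 19 of 24 knockdown arrays. Set 1 values were 4.83, 4.80 and 4.97 with shControl, 5.69, 6.05 and 5.85 with shATM and 5.69, 5.72 and 5.96 with the shATR label. They were 5.66, 5.59 and 5.55 with shCHK1 and 5.64, 5.73 and 6.39 with shCHK2. In set 1, SLC7A8 rose in all 4 comparisons, by 1.00, 0.93, 0.74 and 1.06 (SE 0.19 each, adjusted p 4.5e-05 to 0.0022, limma), with all 12 knockdown arrays above the controls. In set 2, where it was detected on 0 of 3 control arrays, the controls read 4.68, 4.75 and 4.75, shATM 4.99, 5.90 and 5.05, and the shATR label 5.31, 5.39 and 5.28. The shCHK1 arrays of set 2 read 5.17, 4.85 and 4.72, and the shCHK2 arrays 4.81, 5.36 and 5.14. SLC7A8 was at least 1.32-fold higher with shATM (adjusted p = 0.011, limma) and at least 1.33-fold higher with the shATR label (adjusted p = 0.0098) in set 2. These bounds set the control arrays at the dimmest detected signal of each array, or at their own value where that is higher. The shATM value rests on replicate 2, and without that array the difference of 0.59 became 0.30 (adjusted p = 0.16). With shCHK1 and shCHK2 of set 2 the fitted differences were 0.19 and 0.38 (adjusted p = 0.44 and 0.10), not called, and the latter became 0.53 (adjusted p = 0.038) without replicate 1 of shCHK2.

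SLC7A11, the cystine importer whose substrate feeds glutathione synthesis, was detected on 26 of 30 arrays. In set 1 it read 7.61, 7.47 and 7.38 with shControl, 6.17, 5.69 and 5.88 with shATM and 6.02, 6.33 and 6.10 with the shATR label. With shCHK1 and shCHK2 the values were 6.03, 6.01 and 6.29, and 6.21, 6.36 and 6.04. All 12 knockdown arrays of set 1 lay below the 3 controls, which were the highest group of the series by 1.29. SLC7A11 fell there by 2.44-fold to 2.98-fold (log2 differences -1.57, -1.34, -1.38 and -1.29, SE 0.20 each, adjusted p 1.8e-07 to 3.9e-06, limma). In set 2 the controls themselves were low, at 5.68, 5.25 and 5.77, and shATM read 4.88, 4.70 and 4.56. The shATR label gave 5.98, 5.75 and 5.24, shCHK1 5.73, 5.68 and 4.97, and shCHK2 5.38, 5.80 and 5.90. With shATM of set 2, SLC7A11 was detected on 0 of 3 arrays and was at least 1.45-fold lower than in shControl (fitted difference -0.85, adjusted p = 6e-04). The other 3 groups of set 2 overlapped the controls, with differences of 0.09, -0.11 and 0.12 (adjusted p 0.63 to 0.74). With median scaling, those of the shATR label and shCHK2 turned to -0.06 and -0.03 (adjusted p = 0.84 and 0.91).

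SLC7A1, the arginine and lysine carrier, was detected on all 30 arrays. Set 1 gave 10.30, 10.28 and 10.23 with shControl, 10.70, 10.82 and 10.72 with shATM and 10.81, 10.86 and 10.83 with the shATR label. It gave 10.89, 10.84 and 10.78 with shCHK1 and 10.62, 10.81 and 10.58 with shCHK2. SLC7A1 rose in all 4 comparisons of set 1, by 0.48, 0.57, 0.57 and 0.41 (SE 0.11 each, adjusted p 9.5e-05 to 0.0032, limma), with no overlap of knockdown and control arrays. Set 2 gave 10.39, 10.22 and 10.41 with shControl, 10.34, 10.30 and 10.36 with shATM and 10.60, 10.66 and 10.04 with the shATR label. For shCHK1 and shCHK2 of set 2 it gave 10.44, 10.53 and 10.36, and 10.64, 10.49 and 10.58. In set 2 the differences were -0.01, 0.09, 0.10 and 0.23, none of them called. Replicate 3 of the shATR label in set 2 was the lowest array of the series, and without it the difference of 0.09 became 0.29 (adjusted p = 0.0062). The shCHK2 difference of 0.23 (adjusted p = 0.086) was called with the authors' log2 values (0.21, adjusted p = 0.048), with median scaling (0.45, adjusted p = 0.004), and without both arrays that stood apart (0.23, adjusted p = 0.010).

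SLC6A14, a sodium- and chloride-driven carrier of broad specificity found in mammary and other mucosal epithelia, differed most in size. Its set 1 controls read 7.45, 7.51 and 7.0 and were all detected. With shATM of set 1 it read 5.29, 5.16 and 4.92, with the shATR label 4.48, 5.20 and 4.64, with shCHK1 5.01, 4.70 and 4.6, and with shCHK2 4.42, 4.63 and 4.56. Of these 12 knockdown arrays, 4 detected the probe, and all lay below the controls. The set 1 differences were -2.20, -2.55, -2.55 and -2.78 (SE 0.18 each, adjusted p 6e-13 to 8.4e-11, limma). With shCHK2 of set 1 the probe was detected on 0 of 3 arrays, and the transcript was at least 5.35-fold lower.

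In set 2 SLC6A14 was near background in every group. The controls read 5.23, 4.63 and 5.15, of which 2 were detected, and the 12 knockdown arrays, of which 0 were, ranged from 4.33 to 4.79. The shCHK2 arrays lay below the controls and the other 3 groups overlapped them. The fit called all 4 knockdowns lower, with differences of -0.44, -0.48, -0.55 and -0.63 and adjusted p-values of 0.0042 to 0.041. The bound for the shATR label was at least 1.00-fold, and no fold is given for the other 3. Without replicate 1 or replicate 3 of shControl in set 2, the calls for shATM, the shATR label and shCHK1 were lost (adjusted p 0.054 to 0.18), and those for shATM and the shATR label were also lost with the authors' log2 values (0.085 and 0.053). The shATM call was also lost without replicate 1 or 2 of shATM, and that of the shATR label without its replicate 2 or 3 (adjusted p 0.081 to 0.15).

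SLC38A2, the sodium-coupled glutamine and alanine carrier that amino acid shortage is known to induce, was detected on all 30 arrays and fell in every comparison. Its set 1 values were 12.48, 12.57 and 12.72 with shControl, 11.41, 11.59 and 11.67 with shATM and 11.54, 11.53 and 11.46 with the shATR label. They were 11.59, 11.55 and 11.62 with shCHK1 and 11.81, 11.64 and 11.99 with shCHK2. The highest knockdown array of set 1, at 11.99, lay below the lowest control, at 12.48. The set 2 values were 12.39, 12.28 and 12.39 with shControl, 11.29, 11.37 and 11.18 with shATM and 11.18, 11.47 and 11.45 with the shATR label. The shCHK1 arrays of set 2 read 11.17, 10.98 and 11.45, and the shCHK2 arrays 11.15, 10.92 and 10.80, the lowest group of the series. SLC38A2 differences were -1.04, -1.09, -1.01 and -0.78 in set 1 and -1.08, -0.99, -1.16 and -1.40 in set 2 (SE 0.12 each, adjusted p 1.1e-10 to 3e-06, limma). No knockdown array overlapped a control array in either set, and the step from shControl of set 2 to the highest knockdown group was 0.54.

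SLC38A1, its close relative, was detected on all 30 arrays by 2 probes that did not read alike. The brighter probe gave 11.80, 11.83 and 11.79 on the set 1 controls, 11.58, 11.48 and 11.63 with shATM and 11.85, 11.91 and 11.67 with the shATR label. With shCHK1 and shCHK2 of set 1 it gave 11.92, 12.04 and 12.03, and 11.91, 12.09 and 12.15. By this probe SLC38A1 fell with shATM (-0.25, adjusted p = 0.023) and rose with shCHK2 (0.24, adjusted p = 0.024), and with the shATR label and shCHK1 differed by 0.00 and 0.19 (SE 0.09 each, limma). In set 2 the same probe gave 11.84, 11.82 and 11.71 with shControl, 11.29, 11.51 and 11.55 with shATM and 11.58, 11.50 and 11.68 with the shATR label. It gave 11.37, 11.33 and 11.43 with shCHK1 and 11.53, 11.38 and 11.39 with shCHK2. All 12 knockdown arrays of set 2 lay below the 3 controls, with differences of -0.34, -0.20, -0.41 and -0.35, of which that of the shATR label was not called (adjusted p = 0.058).

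The dimmer SLC38A1 probe gave differences of 0.04, 0.19, 0.63 and 0.43 in set 1 and 0.23, 0.34, 0.06 and 0.30 in set 2 (SE 0.13 each). It was called higher with shCHK1 and shCHK2 of set 1 and with the shATR label of set 2 (adjusted p 0.00037 to 0.041, over all kept probes), and called lower nowhere. In set 2 the 2 probes therefore differ in sign, and no direction is given for the gene there. With the mean of both probes, the calls for shATM in both sets and for shCHK1 and shCHK2 of set 2 were lost (adjusted p 0.11 to 0.85). The set 1 call for shATM by the brighter probe was lost without replicate 2 of shATM or replicate 2 of shControl (adjusted p = 0.10 and 0.062). That for shCHK2 was lost without replicate 2 or 3 of shCHK2 or replicate 1 or 3 of shControl (adjusted p 0.054 to 0.10). The shATR difference of set 2 was called without its replicate 3 (-0.25, adjusted p = 0.033).

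SLC1A5, the glutamine exchanger, was detected on all 30 arrays. In set 1 it read 10.24, 10.38 and 10.26 with shControl, 9.84, 9.92 and 9.75 with shATM and 9.87, 9.88 and 9.69 with the shATR label. It read 9.49, 9.79 and 9.54 with shCHK1 and 9.87, 10.05 and 10.20 with shCHK2 of set 1. All 12 knockdown arrays lay below the controls, and SLC1A5 fell by 1.19-fold to 1.61-fold (log2 differences -0.46, -0.48, -0.69 and -0.26, SE 0.11 each, adjusted p 5.2e-06 to 0.048, limma). With median scaling the differences for shATM and the shATR label became -0.32 and -0.16 (adjusted p = 0.12 and 0.46) and that for shCHK2 turned to 0.11 (adjusted p = 0.62). The shCHK2 call was also lost without replicate 1, 2 or 3 of shControl or replicate 1 or 2 of shCHK2 (adjusted p 0.057 to 0.24). In set 2 SLC1A5 read 10.05, 9.98 and 10.13 with shControl, 9.87, 10.11 and 9.80 with shATM and 10.09, 10.31 and 10.35 with the shATR label. The remaining groups of set 2 read 10.16, 10.07 and 10.26 with shCHK1, and 10.04, 10.21 and 10.26 with shCHK2. Each of these 4 groups overlapped the controls, with differences of -0.13, 0.20, 0.11 and 0.12 (adjusted p 0.13 to 0.41). None of the 9 steps between neighbours in the order of the 10 SLC1A5 group means was free of overlap.

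SLC1A4, its paralogue for serine, alanine and cysteine, was detected on 3 of 30 arrays, 1 each with the shATR label, shCHK1 and shCHK2 of set 1. Control arrays ranged from 4.36 to 4.65 and knockdown arrays from 4.36 to 5.09, so a level could not be told from background on 27 arrays. The differences from shControl lay between -0.01 and 0.35, with adjusted p-values of 0.084 to 0.98. Without replicate 2 of shCHK2 in set 1, the shCHK2 difference of 0.28 became 0.49 (adjusted p = 0.014).

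**Figure D3:**
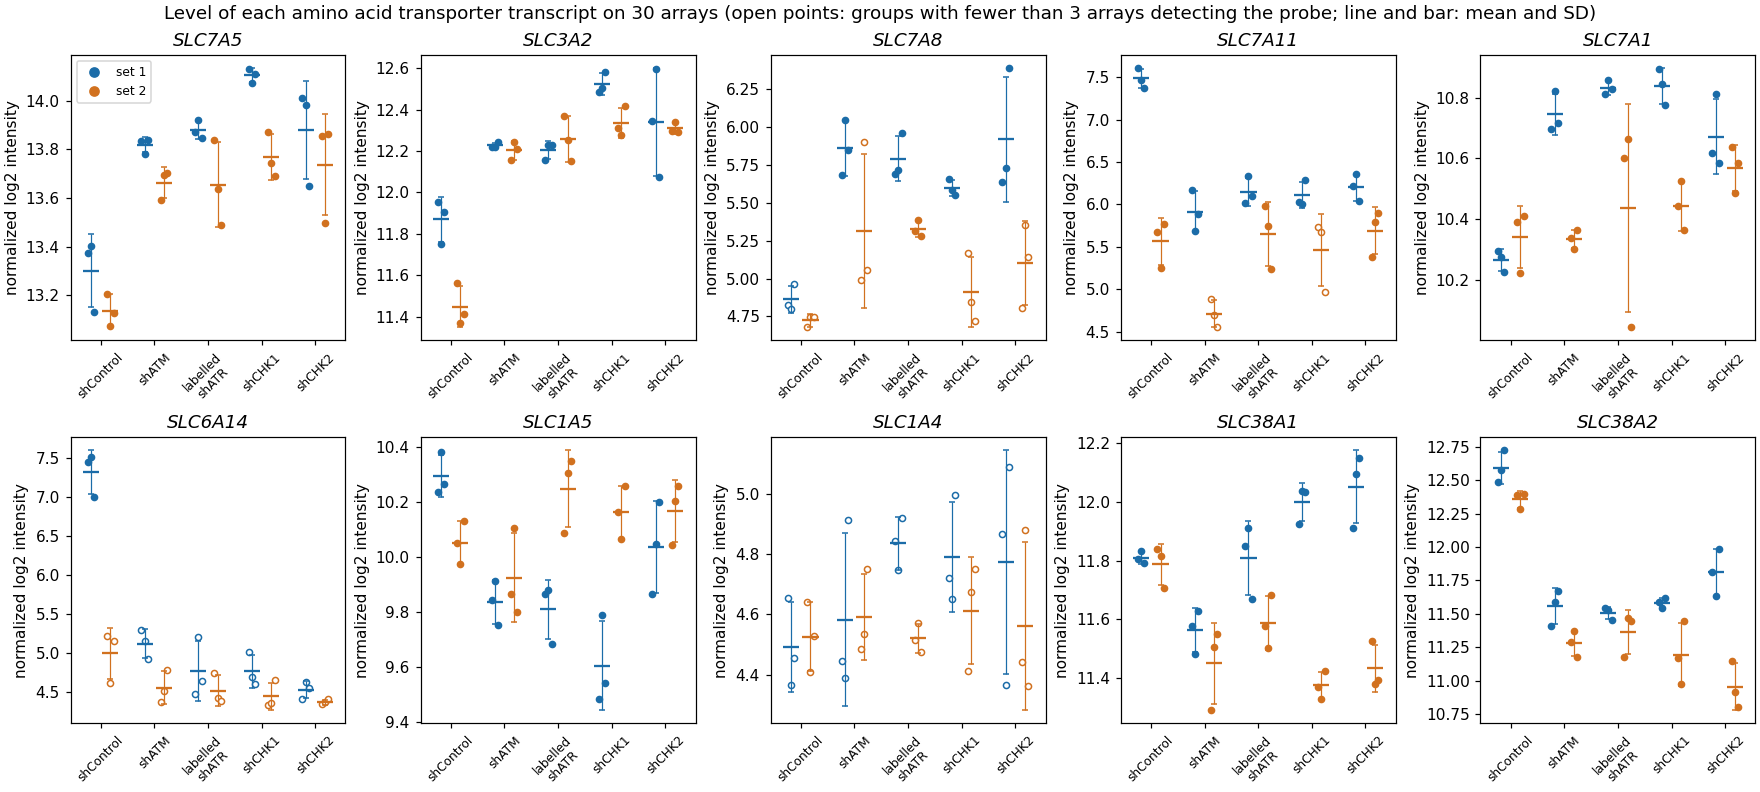
Level of each transporter transcript (normalized log2 intensity, separate scale for each gene) on 30 arrays: points are arrays, horizontal lines group means and bars the SD of 3 arrays, in blue for set 1 and orange for set 2. Open points mark groups in which fewer than 3 arrays detected the probe. The shControl points of SLC7A5 and SLC3A2 lie below all knockdown points and those of SLC38A2 above them, while SLC6A14 and SLC7A11 are highest in shControl of set 1.

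The 4 knockdowns were then compared with each other, each against the 9 arrays of the other 3 knockdowns of its set, which leaves the control arrays out. Of 80 such comparisons 8 were called, 3 higher and 5 lower. Per group, 0.933% to 6.58% of all genes were called higher and 0.459% to 7.14% lower. In set 1, shATM gave 1 of 10 genes (12.6% of all genes were called), the shATR label 0 of 10 (1.93%), shCHK1 2 of 10 (7.89%) and shCHK2 2 of 10 (13.6%). In set 2, shATM gave 2 of 10 (10.6%), the shATR label 0 of 10 (2.94%), shCHK1 0 of 10 (2%) and shCHK2 1 of 10 (5.83%). At an unadjusted p under 0.05 in the limma fit, the 3 comparisons with no call held 0, 3 and 1 of the 10 genes (shATR label of set 1, shATR label of set 2, shCHK1 of set 2).

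SLC7A11 showed the largest of these differences. With shATM of set 2 it was detected on 0 of 3 arrays and on 8 of 9 arrays of the other knockdowns, and was at least 1.48-fold lower (fitted difference -0.89, SE 0.16, adjusted p = 0.00037). SLC38A1 by its brighter probe was lower with shATM of set 1 (-0.39, adjusted p = 0.00052) and higher with shCHK2 of set 1 (0.26, adjusted p = 0.016), SE 0.07 each. SLC1A5 was lower with shCHK1 of set 1 (-0.29, adjusted p = 0.041) and with shATM of set 2 (-0.27, adjusted p = 0.049), and higher with shCHK2 of set 1 (0.29, adjusted p = 0.029), SE 0.09 each. SLC3A2 was higher with shCHK1 of set 1 (0.27, SE 0.08, adjusted p = 0.037), and SLC38A2 lower with shCHK2 of set 2 (-0.32, SE 0.10, adjusted p = 0.043). Except for SLC7A11 with shATM and SLC38A1 with shATM, the arrays of these groups overlapped those of the other knockdowns. With median scaling 4 were called. The SLC3A2 call, those of SLC1A5 and SLC38A1 with shCHK2, that of SLC1A5 with shCHK1 and that of SLC38A2 were then lost (adjusted p 0.051 to 0.41), and SLC6A14 was called higher with shATM of set 1 (0.44, adjusted p = 0.048). With every kept probe tested 4 were called as well, and the calls of SLC3A2, of SLC38A2 and of SLC1A5 with shCHK1 and shATM were lost (adjusted p 0.065 to 0.075). Without both arrays that stood apart 5 were called. The calls for SLC1A5 and SLC38A1 with shCHK2 of set 1 were lost at 0.21 each (adjusted p = 0.25 and 0.12), as were the other 2 of SLC1A5 (adjusted p = 0.052 each), and SLC7A1 was called lower with shATM of set 2 (-0.21, adjusted p = 0.021). The SLC3A2 call was lost without any 1 of several arrays of set 1 (adjusted p 0.053 to 0.19), and the SLC38A2 call without any 1 of several of set 2 (0.055 to 0.26). SLC7A5, SLC7A1, SLC1A4, SLC6A14 and SLC7A8 were not called in any of the 8, the SLC7A5 differences lying between -0.14 and 0.25. Outside these counts, the dimmer SLC38A1 probe gave -0.38 (adjusted p = 0.033) with shATM and 0.14 (adjusted p = 0.51) with shCHK2 of set 1. That probe was called higher with shCHK1 of set 1 (0.41, adjusted p = 0.027, limma, over all kept probes).

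Between the sets, the same shRNA gave different levels for several transporters. Set 2 minus set 1 was called in 21 of 50 comparisons, 2 higher and 19 lower. Per shRNA, 8.17% to 17.1% of all genes were called higher and 7.18% to 23.8% lower. For shControl 3 of 10 genes were called beside 15.3% of all genes, for shATM 4 beside 38.9%, for the shATR label 3 beside 37.1%, for shCHK1 7 beside 36.6% and for shCHK2 4 beside 41%. SLC7A11 was lower in set 2 with every shRNA, by -1.92 with shControl, -1.20 with shATM, -0.50 with the shATR label, -0.65 with shCHK1 and -0.51 with shCHK2 (SE 0.20 each, adjusted p 4.7e-08 to 0.049). For shATM, with 0 of 3 arrays of set 2 detected, this is at least 1.84-fold. The shATR value became -0.29 (adjusted p = 0.30) without replicate 3 of set 2, and the calls for shCHK1 and shCHK2 were lost without single arrays of their groups (adjusted p 0.055 to 0.21). SLC6A14 was 4.99-fold lower in shControl of set 2 than in shControl of set 1 (adjusted p = 2.9e-10), and at least 1.06-fold lower with shATM (adjusted p = 0.014). SLC3A2 was lower in shControl of set 2 (-0.42, adjusted p = 0.0028), with its 4 knockdown groups between -0.19 and 0.05, and with median scaling the control difference was -0.30 (adjusted p = 0.12).

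SLC7A1 was lower in set 2 with shATM, the shATR label and shCHK1, by -0.41, -0.40 and -0.39, and SLC7A8 with shATM, shCHK1 and shCHK2, by -0.55, -0.69 and -0.82. SLC38A1 (brighter probe) was lower with shCHK1 and shCHK2, by -0.62 and -0.62, and SLC38A2 with the same pair, by -0.39 and -0.86. The dimmer SLC38A1 probe gave -0.66 with shCHK1 (called lower) and -0.22 with shCHK2 (adjusted p = 0.22, limma, over all kept probes). With median scaling the SLC38A2 value for shCHK1 was -0.33 (adjusted p = 0.10), and the SLC7A8 value for shATM was -0.18 (adjusted p = 0.061) with the authors' log2 values. SLC1A5 was the gene called higher in set 2, by 0.44 with the shATR label and 0.56 with shCHK1. SLC7A5 was lower with shCHK1 (-0.34, adjusted p = 0.017), and that value became -0.07 (adjusted p = 0.75) with median scaling. SLC7A1 with the shATR label became -0.20 (adjusted p = 0.077) without replicate 3 of set 2, and SLC1A4 was called with no shRNA. Without both arrays that stood apart, SLC38A1 was also called lower in set 2 with the shATR label (-0.27, adjusted p = 0.026).

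The difference between the sets was also tested for each knockdown's difference from shControl, as an interaction term. It was called for 3 of 10 genes with shATM (29.8% of all genes), 5 with the shATR label (28.6%), 5 with shCHK1 (29.6%) and 5 with shCHK2 (32.4%). For SLC7A11 the set 1 difference was the larger in size where the term was called, and the set 1 controls stood above those of set 2. SLC6A14 was called for all 4, but with 0 of 12 knockdown arrays of set 2 detected, a set 2 difference as large as that of set 1 could not have been measured, so its terms do not show in which set it fell more. Without both arrays that stood apart, the SLC7A11 term for shATM (0.72, adjusted p = 0.034) and the SLC1A5 term for shCHK2 (0.45, adjusted p = 0.024) were also called. SLC7A11 was detected on 0 of 3 shATM arrays of set 2, so its shATM term does not show in which set it fell more. SLC3A2 differed more from its control in set 2, with shControl of set 2 the lower control. SLC7A5 and SLC7A8 were not called for any knockdown, with adjusted p-values of 0.45 to 0.97 and of 0.059 to 0.41, and neither was SLC1A4 (0.28 to 0.95). For SLC7A5 the 95% intervals of the 4 interaction terms ran from -0.49 to 0.34.

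**Figure D4:**
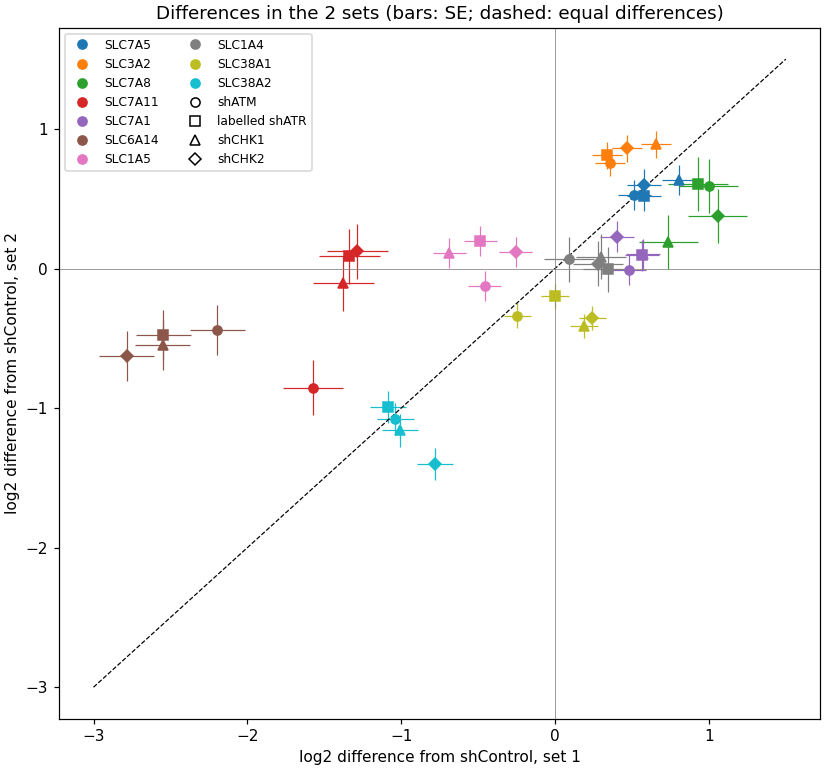
Difference from shControl in set 1 (horizontal) against set 2 (vertical), both log2, for 10 transporters (colours) and 4 knockdowns (shapes), with SE as bars and the dashed line at equal differences. SLC7A5 lies near the line in the upper right, SLC6A14 far left of it, and SLC7A11 below 0 in set 1 and near 0 in set 2 except with shATM.

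Over the 10 group means, SLC7A5 and SLC3A2 correlated at Pearson r = 0.94, as a description of 10 points that share arrays. SLC7A1 correlated with SLC7A5 at 0.82 and with SLC7A8 and SLC1A4 at 0.81 each, SLC7A11 with SLC6A14 at 0.80, and SLC38A2 with SLC6A14 at 0.78. The SLC6A14 values rest on shControl of set 1, and over the other 9 groups SLC6A14 correlated at 0.25 with SLC7A11 and at 0.66 with SLC38A2. Without that group SLC7A5 and SLC3A2 stayed at 0.93. The genes most like each transporter were sought among genes whose group means span at least 1 log2 unit. For SLC7A5 they were SPATS2 (0.981), SOX7 (0.976) and SLF2 (0.972), and for SLC3A2 LMAN2L (0.975), CORO2A (0.956) and ELP5 (0.953). For SLC38A2 they were BRI3 (0.988), CCNG2 (0.984) and ITGB6 (0.982), and for SLC6A14 NRG4 (0.983), DOCK8 (0.972) and KIAA0319 (0.971). Those of SLC6A14 rest on shControl of set 1 as well, since over the other 9 groups they were 0.87, 0.60 and 0.51. SLC7A8 was most like PNKD (0.968), PJA1 (0.965) and TBC1D2B (0.958), and SLC7A1 like TANGO2 (0.961), THBD (0.961) and SH3RF2 (0.954). SLC7A11 was most like ZNF615 (0.931), IQSEC1 (0.909) and UBN2 (0.896), and SLC1A5 like DNAJB14 (0.964), LARP1B (0.951) and DCUN1D4 (0.925). Those of SLC7A11 were 0.82, 0.75 and 0.73 without shControl of set 1. The correlation of SLC7A11 with SLC7A1 went from 0.08 to 0.83 when that group was left out. SLC38A1 by its brighter probe was most like HMGB3 (0.960), RAPH1 (0.957) and C5orf24 (0.955), and SLC1A4, near background throughout, like SCARNA18 (0.935), SPRY4 (0.902) and SLC37A2 (0.900).

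Other genes of amino acid supply were counted from lists written down as the pathway's members. Of 30 other amino acid transporters 19 were tested, and per comparison with shControl 5 to 8 were called higher and 2 to 6 lower. Of all genes, 24.1% to 26.1% were higher and 24.3% to 29.6% lower per comparison, and these shares stand as the background for each list that follows. In all 8 comparisons 4 were higher and 1 lower, beside 10.4% and 13.6% of all genes. SLC7A2, an arginine and lysine carrier like SLC7A1, reached detection on 24 of 24 knockdown arrays and on 0 of 6 controls, with knockdown levels of 6.12 to 6.77 in set 1 and 7.31 to 8.35 in set 2, and was at least 2.49-fold to 8.97-fold higher. SLC1A3, a glutamate and aspartate carrier, rose from 5.54 to 5.76 on set 1 controls to 7.67 to 8.70 on set 1 knockdown arrays, and from 6.59 to 6.61 to 8.37 to 8.95 in set 2. SLC43A2, a carrier of large neutral amino acids, fell in all 8, by 0.82 to 1.84 on the log2 scale. SLC6A9, a glycine transporter, fell in the 4 comparisons of set 2 and was not called in set 1.

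Of 27 genes of the amino acid response and amino acid synthesis, 7 to 9 were lower and 5 to 9 higher in set 1, and 13 to 14 lower and 2 to 6 higher in set 2. In all 8 comparisons 1 was higher and 6 were lower, again beside 10.4% and 13.6% of all genes. NUPR1, a stress-induced nuclear protein, stood at 8.0 to 8.28 on control arrays and 4.53 to 5.18 on knockdown arrays, and fell in all 8, where knockdown groups with 0 detected arrays gave bounds of at least 7.86-fold to 10.2-fold. CBS, which joins homocysteine to serine, fell in all 8, with differences of -2.15 to -0.78 in 6 comparisons and at least 4.30-fold to 4.36-fold in the other 2, whose knockdown groups had 0 detected arrays. ALDH18A1, which starts proline synthesis from glutamate, rose in all 8 by 0.31 to 0.73 (7 of 8 called with median scaling). TRIB3, a pseudokinase induced by ATF4, rose in 5 of 8, 4 of them in set 1, and in 7 of 8 without the arrays that stood apart or with median scaling. ATF4 itself was called in 0 of 8, with differences of -0.12 to 0.14. Besides NUPR1 and CBS, the genes of this list lower in all 8 were ASNS, PCK2, VLDLR and CEBPB. With median scaling, none of this list was higher and 4 were lower in all 8.

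Among 18 aminoacyl-tRNA synthetases, which charge tRNAs with amino acids, 3 to 5 were higher and 2 to 8 lower per comparison, and 2 were higher and 1 lower in all 8. The counts of higher calls thus lay near the 24.1% to 26.1% of all genes. FARSA and TARS1, for phenylalanine and threonine, rose in all 8 by 0.59 to 1.05 and by 0.30 to 0.85, and AARS1, for alanine, fell in all 8 by 0.64 to 1.03. SARS1, for serine, fell in the 4 comparisons of set 2 and was not called in set 1. Median scaling gave 3 to 11 higher and 1 to 4 lower per comparison, so the split of this list depends on the scaling. TARS1 was then called in 7 of 8.

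Of 12 genes of glutamine and glutathione use, 0 to 3 were higher and 5 to 9 lower, with list medians between -0.40 and -0.17. GPX4, the glutathione peroxidase that reduces lipid peroxides, fell in all 8 by 0.63 to 0.87. GCLC, the catalytic subunit of the enzyme that joins glutamate and cysteine, fell in the 4 comparisons of set 1, where SLC7A11 also fell, and in 1 of set 2. In set 2 it was lower in 3 comparisons without the arrays that stood apart or with the authors' log2 values, and in 0 with median scaling. GSS, which completes glutathione, rose in the 4 comparisons of set 1 and fell in the 4 of set 2. With median scaling the list medians ran from -0.35 to 0.03 and 1 gene instead of 3 was lower in all 8.

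Of 24 genes listed for amino acid sensing by mTORC1, 0 to 3 were higher and 9 to 16 lower. The list medians lay between -0.44 and -0.23 beside medians of all genes near 0. The list holds parts of mTORC1 and its regulators, among them genes that restrain it, so the counts give no direction for its activity. With median scaling 0 to 5 were higher and 5 to 14 lower, and the medians ran from -0.50 to -0.11. TSC2, part of the complex that restrains mTORC1, fell in all 8 by 0.39 to 1.37 (7 of 8 with median scaling). DEPTOR, an inhibitor bound to mTOR, reached detection on 5 of 6 controls and on 0 of 24 knockdown arrays, fell in 6 of 8, and was at least 1.00-fold to 1.90-fold lower. SLC38A9, the lysosomal arginine sensor, rose in 6 of 8 (4 with median scaling), and MTOR itself in 5 of 8 (4 with median scaling), falling in 1. In all 8 comparisons 6 genes of this list were lower and 0 higher, beside 13.6% and 10.4% of all genes, while with median scaling 1 was lower in all 8. The shares of all genes stand beside these lists in the plot of list shares, and no list was tested as a set.

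**Figure D5:**
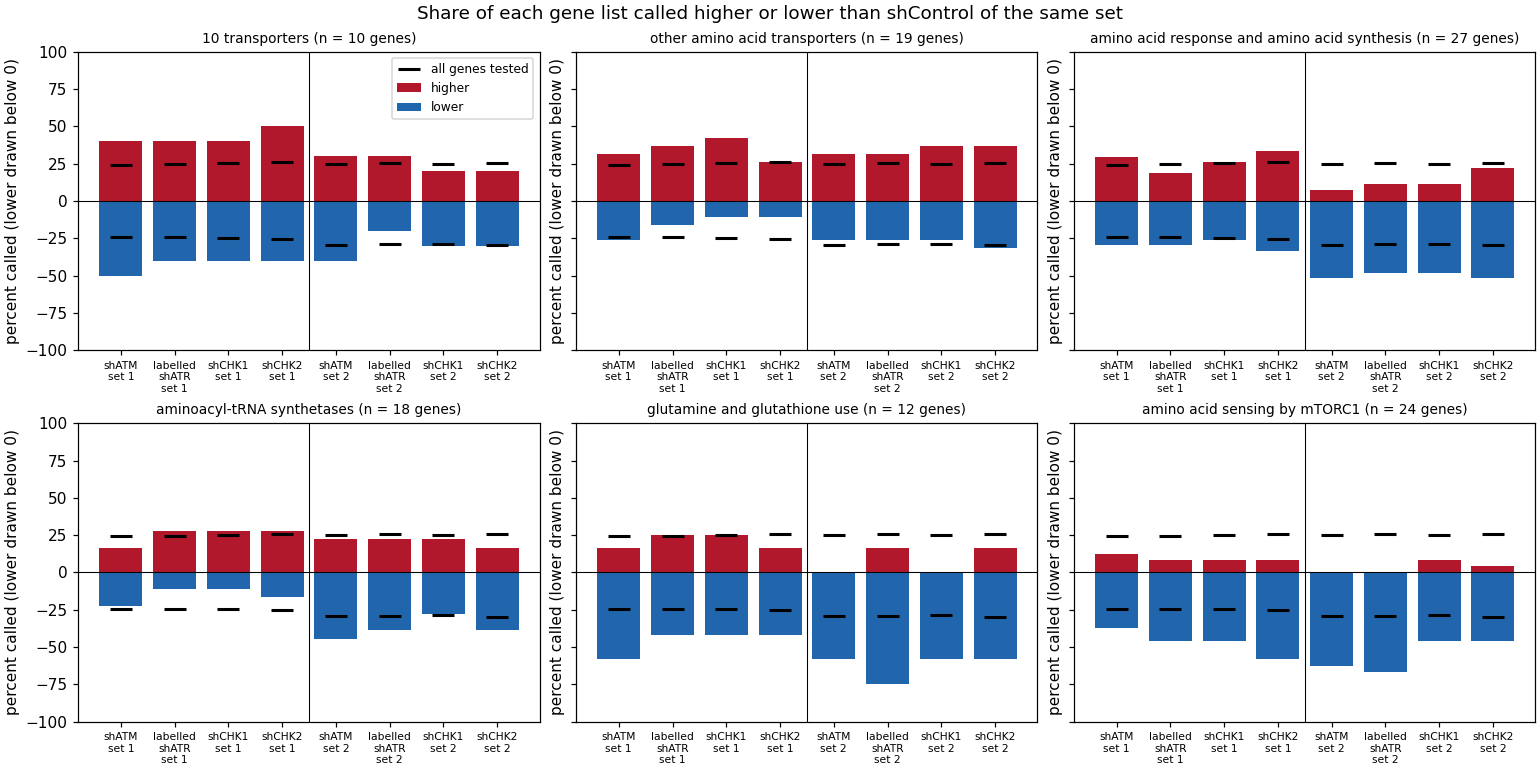
Percent of the tested genes of each list called higher (red, above 0) or lower (blue, drawn below 0) than shControl of the same set, for 4 knockdowns in set 1 (left of the line) and set 2 (right of it). Black marks give the same percent over all genes tested. Lower calls of the mTORC1 and the glutamine and glutathione lists extend past the black marks in all 8 comparisons.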

How the data were processed

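RNA was measured on 30 Illumina bead arrays, 3 for each of 5 shRNAs in 2 sets. The deposited table holds non-normalized probe intensities and a detection p-value per probe and array, and a second deposited table holds the authors' log2 values, whose processing is not given in the sources used here. Per the platform annotation, 30113 of 47231 probes have 1 symbol, 8 several and 17110 none.

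Background correction and quantile normalization used neqc of limma 3.58.1 in R 4.3.3 with an offset of 16, and took the negative controls from the detection p-values. Probes detected on at least 3 arrays were kept (26967), and the brightest kept probe on average stood for each gene. A model with 10 group means (20 residual degrees of freedom) gave 25 contrasts, adjusted by Benjamini-Hochberg over 13721 genes. The code was tested on simulated data. Sequences and motifs were read with Python 3.11.15.

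Where a probe was detected on 0 arrays of the dimmer group, a fold is given as a lower bound. Same-numbered arrays of a knockdown and of shControl of its set correlated at -0.05 to 0.10 after removal of group means (0 of 24 pairs over 0.1). No deviation shared by number was thus seen, which cannot tell whether the numbers pair the samples. The genes, the lists and the tests were chosen with earlier results of these data known. Named by rule were the 10 genes and the 3 genes most like each. From each list at most 2 genes per direction, called in at least 4 of 8 comparisons, were named. ATF4, ASNS, PCK2, VLDLR and CEBPB were named in addition. The number of arrays limits the precision. Alternatives were the authors' values, other scaling, filters and probes, a replicate block, and leaving out arrays. Leaving out both arrays that stood apart, or shControl of set 1 from the correlations, was chosen after seeing the data.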

Additional observations from a re-analysis of the deposited data

Results flagged for a closer look

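For 18 of the 40 pairs of gene and knockdown, the difference from shControl differed between the sets by the interaction term of the limma fit (set 2 difference minus set 1 difference, log2, 12 above 0 and 6 below). Per knockdown, 11.6% to 13.6% of all genes had a term called above 0 and 17% to 18.8% below 0. All 4 knockdowns of a set share their 3 control arrays, so the values of 1 gene are not independent. Gene by gene, groups of 3 arrays were too small for a test of the highest or lowest array against the others.

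For SLC6A14 the fitted interaction terms were called for all 4 knockdowns, at 1.76 with shATM, 2.07 with the shATR label, 2.00 with shCHK1 and 2.16 with shCHK2 (SE 0.25 each, adjusted p 2.6e-07 to 6.5e-06, limma), with the set 2 levels near background. With 0 of 12 knockdown arrays of set 2 detected, a fall like that of set 1 could not have been measured there, so the sign and size of these terms do not show in which set SLC6A14 fell more. SLC7A11 differed by 1.42 with the shATR label, 1.27 with shCHK1 and 1.41 with shCHK2 (SE 0.28 each, adjusted p 0.00028 to 0.00091). For shATM the SLC7A11 value of 0.72 missed the threshold (adjusted p = 0.052) and passed it without replicate 1 of shATM in set 1 (0.85, adjusted p = 0.032). With 0 of 3 shATM arrays of set 2 detecting the probe, this value does not show in which set SLC7A11 fell more. SLC1A5 differed by 0.68 with the shATR label and 0.80 with shCHK1 (SE 0.15 each, adjusted p = 0.0012 and 0.00021), and these became 0.53 and 0.58 (adjusted p = 0.092 and 0.061) with median scaling.

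SLC3A2, higher than shControl in both sets, differed more in set 2, by 0.40 with shATM, 0.47 with the shATR label and 0.39 with shCHK2 (SE 0.14 each, adjusted p 0.01 to 0.031). The dimmer SLC3A2 probe gave 0.76, 0.59 and 0.96, called for shATM and shCHK2. SLC3A2 with shCHK2 became 0.26 (adjusted p = 0.11) without replicate 3 of shCHK2 in set 1. The SLC3A2 calls for shATM and shCHK2 were also lost without replicate 1 or 3 of shControl in set 1, without replicate 2 or 3 of shControl in set 2, and without replicate 2 of the knockdown itself in set 2 (adjusted p 0.06 to 0.077). That for shATM was lost as well without replicate 1 or 2 of shATM in set 1 (adjusted p = 0.052 each). SLC7A1 differed by -0.49 with shATM, -0.47 with the shATR label and -0.47 with shCHK1 (SE 0.16 each, adjusted p 0.02 to 0.024). Its value for the shATR label became -0.28 (adjusted p = 0.08) without replicate 3 of that label in set 2. Without replicate 1 or 3 of shControl in set 2 the SLC7A1 calls for the shATR label and shCHK1 were lost (adjusted p = 0.054 and 0.058). The former was also lost without replicate 3 of shControl in set 1 (0.05 after rounding), and the latter without replicate 1 of shCHK1 in set 1 or replicate 3 of shCHK1 in set 2 (adjusted p = 0.054 and 0.06). SLC38A1 by its brighter probe differed by -0.60 with shCHK1 and -0.60 with shCHK2 (SE 0.12 each, adjusted p = 0.00054 each), and its dimmer probe gave -0.57 (adjusted p = 0.028) and -0.13 (adjusted p = 0.69). SLC38A2 differed by -0.62 with shCHK2 (SE 0.17, adjusted p = 0.005).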

How the results depend on the processing

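Against shControl, 56 calls became 52 (30 higher, 22 lower) with median scaling and 53 to 57 with the other settings. Leaving out single arrays gave 52 to 58 against shControl, 19 to 22 between sets, 15 to 20 for the interaction terms and 4 to 8 among the knockdowns. The 8 calls among the knockdowns became 4 with median scaling, 4 with every kept probe tested, and 5 without both arrays that stood apart. No call changed to a call in the other direction. The SLC1A5 difference for shCHK2 of set 1 turned to 0.11 with median scaling. That scaling moved the median of all genes by up to 0.176 (log2, shCHK2 of set 1), and the cause was not tested. Over all genes, calls among the knockdowns fell with it from 1083 to 641 (shCHK1, set 1), 404 to 221 (shATR label, set 2), 274 to 115 (shCHK1, set 2) and 800 to 398 (shCHK2, set 2). Without the arrays that stood apart they were 860 beside 1862 (shCHK2, set 1) and 241 beside 404 (shATR label, set 2). The share of higher calls with median scaling was 19.1% to 21.2% for the interaction terms, a move of -22.8 to -20 percentage points, and 24.9% to 31.1% between sets of the knockdowns, a move of -16.9 to -11 points. A replicate block gave 56, 8, 21 and 18 calls, as without it. Slides as a block were not run, because the headers name none. SLC1A4, SLC6A14 of set 2 and of the set 1 knockdowns, and SLC7A8 of the controls were near background, which limits their differences.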
